A study of Mus musculus with 4 samples.

Results

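The IL-17 system was followed through 7 genes, the ligands Il17a and Il17f and the receptor chains Il17ra, Il17rc, Il17rb, Il17re and Il17rd. They were taken by gene identifier from the 31950 identifiers that the WT and A20ZF7 gene expression libraries share, and each was described in 16 cell classes, to ask which cells made the ligands and which carried the receptor chains.

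The cells came from the lamina propria of the proximal small intestine of 12-week-old mice, either WT or A20ZF7. A20ZF7 mice carry a knock-in change in the seventh zinc finger of A20, the ubiquitin-binding protein encoded by Tnfaip3, that abolishes its binding of linear ubiquitin in every cell of the animal. Each genotype was 1 library, made from 2 mice that were marked with hashtag antibodies and pooled, after a negative selection meant to leave T cells and innate lymphoid cells (ILCs), and 60000 cells per genotype were collected for 5′ single-cell RNA sequencing. With 1 library per genotype, no difference between the genotypes could be tested, and genotype, library and gene annotation cannot be told apart. Barcodes with 2 hashtags, 2547 in all, were removed from the WT library only, since A20ZF7 had no usable hashtag counts, so this filter was unequal between the genotypes and its part in the ratios was not tested.

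IL-17A and IL-17F are secreted as homodimers or as a heterodimer and signal through a receptor of IL-17RA and IL-17RC. IL-17RA is the shared chain. It pairs with IL-17RB to bind IL-25, a cytokine of tuft cells that acts on type 2 ILCs (ILC2), and with IL-17RE to bind IL-17C, an epithelial cytokine. IL-17RD is a further family member that can modify signalling through IL-17RA. In the gut, Th17 cells, γδ T cells and type 3 ILCs (ILC3) are known sources of IL-17A and IL-17F, and epithelial and stromal cells are known to respond with chemokines and antimicrobial proteins.

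On the GRCm38.p6 assembly of RefSeq, Il17a lies at chr1:20730905-20734496 on the forward strand and Il17f at chr1:20777146-20785274 on the reverse strand, so that the 2 genes are read towards each other across 42649 bases that hold no other listed gene. Il17re at chr6:113458699-113470758 and Il17rc at chr6:113471455-113483163 also are neighbours, 696 bases apart and on the same strand. Il17ra lies at chr6:120463181-120483731, Il17rd at chr14:27038964-27107286 and Il17rb at chr14:29996168-30008896. The 250 bases before the start sites of both ligand genes are shown because Il17a and Il17f had like patterns over the cell classes. They come from RefSeq's GRCm38.p6 annotation, chr1:20730655-20730904 for Il17a and chr1:20784271-20784520, read on the reverse strand, for Il17f. The Il17f stretch is placed by the start site of the table used and lies inside the span listed for the gene. Capitals mark AGGTCA, the core of the sites that RORα and several other nuclear receptors are known to bind, or its reverse complement TGACCT.
Il17a: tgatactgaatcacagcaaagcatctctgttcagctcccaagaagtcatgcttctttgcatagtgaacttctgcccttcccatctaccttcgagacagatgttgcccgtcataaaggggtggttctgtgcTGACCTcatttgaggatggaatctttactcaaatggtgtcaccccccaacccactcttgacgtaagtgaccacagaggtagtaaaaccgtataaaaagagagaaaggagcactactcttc
Il17f: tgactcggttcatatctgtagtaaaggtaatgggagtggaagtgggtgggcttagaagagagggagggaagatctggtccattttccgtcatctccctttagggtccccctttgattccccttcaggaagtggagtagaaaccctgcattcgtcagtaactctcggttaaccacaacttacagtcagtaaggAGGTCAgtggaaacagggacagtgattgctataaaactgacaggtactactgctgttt
The match began 120 bases before the start site in Il17a, on the reverse strand, and 58 bases before it in Il17f, on the forward strand of the gene. On either strand, AGGTCA was found in 16.3% of the 32851 windows of 300 bases around annotated start sites, and in no other of the 6 members with a window. TTCNNNGAA, the palindrome of STAT sites, stood in 8.3% of all windows and in none of the 6 members' windows. Il17ra had no window in the table.

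The deposited matrices hold 35289432 UMIs (unique molecular identifiers, each standing for 1 captured transcript) in the WT library and 54587004 in the A20ZF7 library. After filtering, 14722 WT and 43162 A20ZF7 barcodes were kept as cells, with medians of 1060 and 853 UMIs per cell. Of these cell barcodes, 913 occurred in both libraries, and of all deposited barcodes 495667 did. The count of 913 was not compared with that of random draws. A level is given as CPM, the UMIs of the gene per 1000000 UMIs summed over the cells of a class, and, because a 5′ UMI stands for 1 transcript end whatever the length of the transcript, it was not divided by length. Intervals are exact 95% intervals and cover counting error only. Barcodes with 1 to 50 UMIs, called empty barcodes, show the free RNA that enters every droplet. A class interval is called above the empty barcodes only where it lies wholly above their own interval. Il17a was at 91.8 CPM in the WT and 590 CPM in the A20ZF7 empty barcodes and Il17f at 15.6 and 123 CPM, so the background of the ligands differed 6.43-fold (interval 5.30 to 7.85) for Il17a before any cell was counted. The receptor chains were between 5.44 and 64.6 CPM in the WT and between 2.54 and 35.6 CPM in the A20ZF7 empty barcodes.

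The class names rest on marker genes. In the ILC2-like class, 12 of 12 markers were above the empty barcodes in each library, Gata3 at 962 CPM in WT and 825 CPM in A20ZF7. In the ILC3-like class, 13 of 16 were above in WT and 12 of 16 in A20ZF7, with Il22 at 1469 and 1075 CPM. The name Th17-like was weaker: 9 of 11 markers were above the empty barcodes in WT and 8 of 11 in A20ZF7, but only 2 of 11 reached 2 times the empty level in A20ZF7, Ccl20 among them, against 6 of 11 in WT. The name γδ T-like also rests on few genes. In WT 4 of 5 markers reached 2 times the empty level and in A20ZF7 2 of 5, and Trdc, the constant segment of the T cell receptor δ chain, was below the empty barcodes in both, at 454 against 1611 CPM in WT and 561 against 3416 CPM in A20ZF7. Several classes were made of different clusters in the 2 genotypes. The ILC2-like class was cluster L8 in WT (1241 of 1653 cells) and cluster L4 in A20ZF7 (2201 of 2243 cells), the ILC3-like class L9 in WT (965 of 1196) and L2 in A20ZF7 (3038 of 3102), and the fibroblast-like class was led by A9 in WT (2051 of 5315) and by A1 in A20ZF7 (6103 of 12098). The members were kept out of the genes used for clustering, yet Il17a was among the 10 leading genes of both Th17-like clusters, Il17f of one of them, L0, and Il17rb of L8, so high levels there are a description of those clusters.

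Il17a was highest in the Th17-like cells of both genotypes. It reached 1512 CPM in WT (285 UMIs in 141 cells, interval 1341 to 1698) and 3326 CPM in A20ZF7 (20375 UMIs in 6151 cells, interval 3281 to 3372). The ratio of A20ZF7 to WT was 2.20 (interval 1.96 to 2.48). Of the WT cells, 41.8% had an Il17a UMI (interval 33.6% to 50.4%) and of the A20ZF7 cells 73.5%. With cells thinned to 500 UMIs, which left out the A20ZF7 cells below that depth and no WT cell, the shares were 33.3% and 64.8%. Both Th17-like clusters showed the difference, L0 from 3187 to 4572 CPM, a ratio of 1.43 (interval 1.20 to 1.73), and L5 from 1098 to 2593 CPM, a ratio of 2.36 (interval 2.03 to 2.77). Barcodes with 5 or more Il17a UMIs made up 14.9% of the WT and 28.3% of the A20ZF7 Th17-like cells, with a maximum of 21 and 33 UMIs in 1 cell. By hashtag, the 2 WT mice were at 1314 and 1430 CPM, from 42 and 59 cells, and the 40 cells without a call were at 1941 CPM. The hashtags separated the mice poorly, so these values bound the spread between animals only loosely. The ratio depended on how the class was drawn. It was 1.09 (interval 0.96 to 1.24), no longer apart from equal levels, when the members were allowed among the genes used for clustering. It was 1.67 at a finer clustering resolution, 1.71 with cells thinned to 500 UMIs and 4.21 (interval 3.68 to 4.84) when each barcode was classed on its own by its markers.

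Il17f was lower than Il17a in the Th17-like cells, 148.5 CPM in WT (28 UMIs, interval 98.7 to 215) and 420.5 CPM in A20ZF7 (2576 UMIs). The ratio was 2.83 (interval 1.95 to 4.27). It was 1.76 (interval 1.14 to 2.88) with the members among the clustering genes, 1.99 in barcodes with at least 1000 UMIs, 11.3 (interval 6.59 to 21.4) with each barcode classed on its own and 6.81 in cluster L0 alone (3 WT UMIs). Without WT mouse 2 and the WT barcodes without a hashtag call it was 5.25, from 5 WT UMIs. The Th17-like cells held 31.6% of all Il17f UMIs in A20ZF7 cells, and 9.10% with each barcode classed on its own. Of the A20ZF7 Th17-like cells with an Il17f UMI, 90.7% also had an Il17a UMI, against 68.5% of those without Il17f, whose median depth was 709 UMIs against 877. In WT, 12 of 14 Il17f-positive Th17-like cells had Il17a. Il17f made up 8.95% of the UMIs of both ligands in the WT (interval 6.03% to 12.7%) and 11.2% in the A20ZF7 Th17-like cells (interval 10.8% to 11.6%), and these intervals overlap. Of the 7 members, 6 had at least 20 UMIs over both libraries in the Th17-like class, and 2, Il17a and Il17f, were at least 2-fold higher in A20ZF7, a call that both lost with the members among the clustering genes. Among all genes with that many UMIs in the class, 9.2% were at least 2-fold higher and 6.13% at least 2-fold lower.

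**Figure D1:**
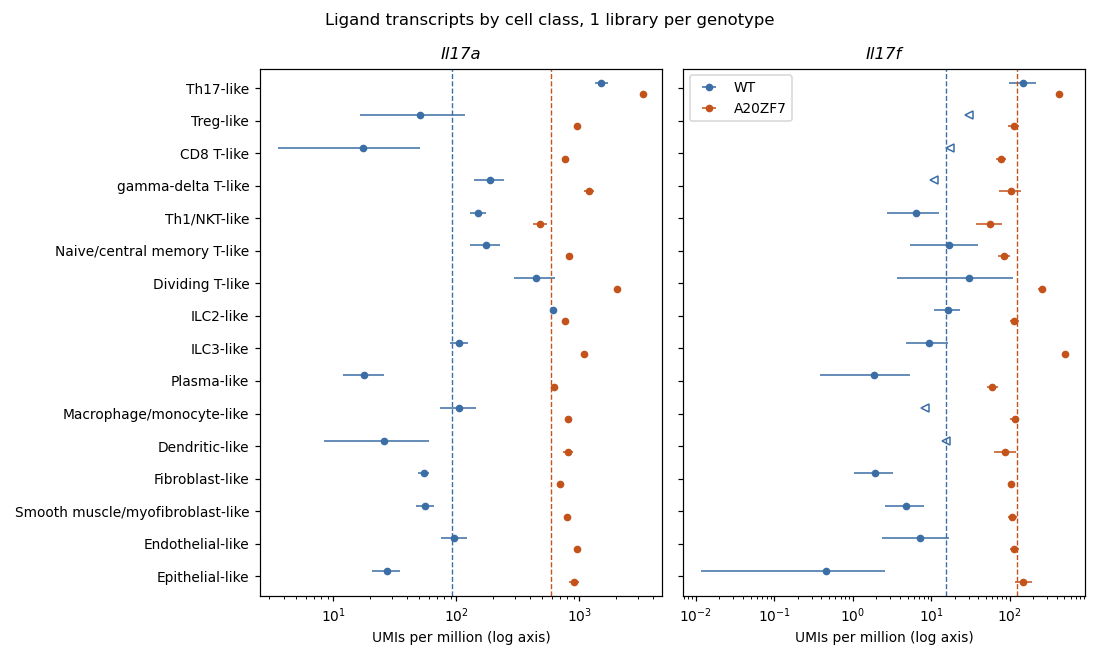
Il17a (left) and Il17f (right) in CPM on a log axis, by cell class, for the WT and the A20ZF7 library. Points are class sums, bars are exact 95% counting intervals and dashed lines are the levels in the empty barcodes of each library. Open triangles stand at 3 UMIs, the upper limit for a class without a UMI. Il17a was highest in Th17-like cells in both libraries, and in A20ZF7 14 of 16 classes had an interval above the empty barcodes.

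Dividing T-like cells were next in A20ZF7, at 2034 CPM Il17a and 257 CPM Il17f from 648 cells. In WT they were 35 cells, at 443 CPM Il17a and 30.5 CPM Il17f, and the latter rested on 2 UMIs. The γδ T-like cells had 187 CPM Il17a in WT (52 UMIs, interval 140 to 246) and 1199 CPM in A20ZF7 (466 UMIs). Il17f was not detected in the 287 WT γδ T-like cells, which allows a level of up to 10.8 CPM at 3 UMIs, and was at 103 CPM in A20ZF7, under the 123 CPM of its empty barcodes. The CD8 T-like cells went from 17.3 CPM (3 UMIs) to 769 CPM Il17a. The Treg-like cells went from 50.6 CPM (5 UMIs) to 957 CPM. In each of these classes the A20ZF7 Il17a level was above the empty barcodes of that library, by 1.303-fold in the CD8 T-like and 1.62-fold in the Treg-like class. The top 5% of A20ZF7 barcodes held 54.2% of the Il17a UMIs in the CD8 T-like and 47.8% in the Treg-like class. An Il17a UMI was found in 19.9% and 24.5% of barcodes, where spreading by depth would give 41.4% and 51.7%. Both class levels, 769 and 957 CPM, lay within the 625 to 964 CPM of the A20ZF7 classes that are neither T cells nor ILCs.

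The ILC2-like cells were the main holder of Il17a in WT. They had 615 CPM (1133 UMIs in 1653 cells, interval 580 to 652), 42.6% of all Il17a UMIs in WT cells, while they held 9.07% of all UMIs. The Th17-like cells held 10.7% of the Il17a UMIs in WT. In A20ZF7 the order was the other way round, with 37.0% of Il17a UMIs in Th17-like cells (13.3% of all UMIs) and 3.25% in ILC2-like cells at 771 CPM (1786 UMIs, interval 736 to 808). The ILC2-like ratio was 1.25 (interval 1.16 to 1.35). It was the sum of unlike clusters, since WT cells of L8 had 755 CPM and WT cells of L4 had 140 CPM, while A20ZF7 cells of L4 had 775 CPM and the 42 A20ZF7 cells of L8 had 587 CPM. Within L4 the ratio was 5.52 (interval 4.26 to 7.28) and within L8 it was 0.78 (interval 0.51 to 1.15). Both WT mice carried the signal, with 494 and 669 CPM from 518 and 655 cells.

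The Il17a-positive ILC2-like barcodes of WT did not carry more CD3, CD4 or CD90.2 surface protein than the rest. Among those with 3 or more Il17a UMIs (150 barcodes) the median antibody count was 13 for CD3, 2 for CD4 and 4 for CD90.2, and among those without Il17a (1309 barcodes) it was 14, 2 and 5. Th17-like barcodes with 3 or more Il17a UMIs had 29, 8 and 26. The isotype control antibodies had medians of 2 to 5 in the ILC2-like class, so its CD4 and CD90.2 counts lay within the range of the controls. Its CD3 counts, 13 and 14, lay above that range in barcodes with 3 or more Il17a UMIs and in those without Il17a. T cell transcripts (Cd3e, Cd3d, Cd3g or Trac) were found in 22.8% of WT ILC2-like barcodes without Il17a and in 29.9% of the 77 with 5 or more Il17a UMIs, whose depths were 917 and 1167 UMIs at the median. ILC2 transcripts (Gata3, Il1rl1, Hs3st1 and Klrg1) summed to 1473 and 1343 CPM. In A20ZF7 the picture was another one, with T cell transcripts in 36.3% of ILC2-like barcodes without Il17a (median depth 799 UMIs) and in 87.2% of the 109 with 5 or more (median depth 1549 UMIs), and ILC2 transcripts at 1512 and 786 CPM. When barcodes with a T cell transcript were left out, the ILC2-like class had 599 CPM Il17a in WT and 323 CPM in A20ZF7. The latter was below the 590 CPM of the empty barcodes.

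Il17f separated the ILC classes. In A20ZF7 the ILC3-like cells had the highest Il17f level of the 16 classes, 509 CPM (1359 UMIs in 3102 cells, interval 482 to 536), above the 420.5 CPM of the Th17-like cells. In WT they had 9.38 CPM (12 UMIs in 1196 cells, interval 4.85 to 16.4), which was not above the WT empty barcodes. The ratio was 54.2 (interval 30.9 to 105). Il17a in the same cells went from 106 to 1094 CPM, a ratio of 10.4 (interval 8.72 to 12.4). Most WT cells were in L9 and most A20ZF7 cells in L2, and the difference was present in each cluster, in L2 from 1 UMI in 231 cells to 515 CPM and in L9 from 10.6 CPM to 205 CPM (11 UMIs in 64 cells). Il17f was 31.7% of the UMIs of both ligands in A20ZF7 ILC3-like cells (interval 30.3% to 33.1%), while it was between 7.91% and 14.2% in the other 15 classes and 17.3% in the empty barcodes (interval 14.3% to 20.7%). It was the only class whose interval lay wholly above that of the empty barcodes.

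**Figure D2:**
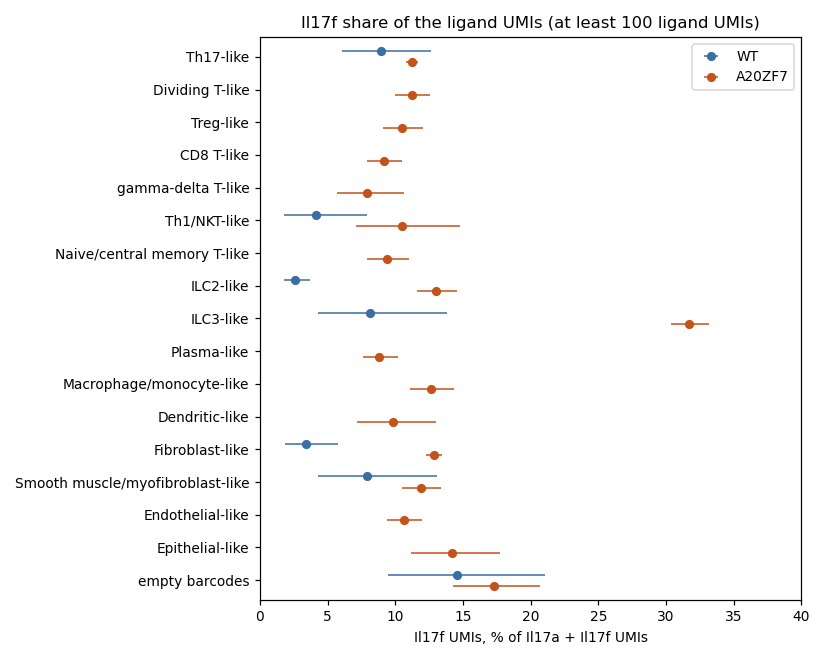
Il17f as a percentage of the Il17a and Il17f UMIs together, by cell class and library, with exact binomial 95% intervals where both ligands had at least 100 UMIs together. The bottom row is the empty barcodes. A20ZF7 ILC3-like cells stood at 31.7%, and WT ILC2-like cells at 2.58%.

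Of the 595 A20ZF7 ILC3-like barcodes with Il17f, 299 also had Il17a (50.3%), against 21.7% of those without Il17f, at median depths of 912 and 708 UMIs. Il17a was found in 27.2% of all A20ZF7 ILC3-like barcodes. The 296 with Il17f and no Il17a had T cell transcripts in 36.1% of cases, close to the 38.6% of ILC3-like barcodes without Il17a, and their ILC3 transcripts (Ncr1, Il22, Tyrobp and Fcer1g) were at 2690 CPM against 1877 CPM. Over the A20ZF7 class, Il22 led that list at 1075 CPM, with Fcer1g at 685 and Ncr1 at 46.0 CPM. Tyrobp, at 25.4 CPM, was below its empty barcodes at 75.1 CPM, and the others were above theirs. The paper reports Il22 in Th17 cells too, so this sum cannot tell ILC3 from Th17 RNA. The 211 ILC3-like barcodes with 5 or more Il17a UMIs had T cell transcripts in 83.9% of cases, at a median depth of 1284 UMIs against 662 in those without Il17a. Without the barcodes that held a T cell transcript, the A20ZF7 ILC3-like class had 597 CPM Il17f, above the 123 CPM of the empty barcodes, and 592 CPM Il17a, at their level of 590 CPM. In the ILC2-like class Il17f was scarce beside Il17a in WT, at 2.58% of both ligands (interval 1.75% to 3.66%), and was 13.0% in A20ZF7 (interval 11.6% to 14.5%). Of the members, 6 had 20 or more UMIs in the ILC3-like class and 2, the ligands, were at least 2-fold higher in A20ZF7, where 6.26% of all genes were higher and 3.61% lower. In the ILC2-like class 1 of 5, Il17f, was at least 2-fold higher, where 6.03% of all genes were. Its A20ZF7 level there, 115 CPM, was below the 123 CPM of the empty barcodes. Without barcodes that held a T cell transcript, ILC2-like Il17f was at 11.8 CPM in WT and 64.3 CPM in A20ZF7.

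Ligand UMIs also lay in classes outside the known sources. The fibroblast-like cells, the most numerous class, had 54.5 CPM Il17a in WT (366 UMIs in 5315 cells) and 703 CPM in A20ZF7 (10056 UMIs in 12098 cells), a ratio of 12.9 (interval 11.6 to 14.3), and they held 18.3% of Il17a and 18.2% of Il17f UMIs in A20ZF7. The epithelial-like cells had 27.2 and 907 CPM and the plasma-like cells 17.9 and 625 CPM. In the 7 classes that are neither T cells nor ILCs, Il17a ranged from 17.9 to 105 CPM in WT and from 625 to 964 CPM in A20ZF7. In WT, 6 of the 16 classes had an Il17a interval above the empty barcodes, all of them lymphoid, and in A20ZF7 14 of 16 had. For Il17f it was 1 class in WT, Th17-like, and 3 in A20ZF7, ILC3-like, Th17-like and dividing T-like.

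These UMIs were clumped in few barcodes that also carried T cell transcripts. In A20ZF7, 22.3% of fibroblast-like barcodes had an Il17a UMI, where spreading the same UMIs over barcodes by depth would give 52.8%, and the top 5% of barcodes held 52.7% of them. Such clumping was not particular to these classes. In the WT ILC2-like class 20.8% of barcodes had an Il17a UMI, where spreading by depth would give 47.5%, and the top 5% held 56.7%. T cell transcripts were found in 30.3% of the A20ZF7 fibroblast-like barcodes without Il17a and in 86.5% of the 773 with 5 or more Il17a UMIs, at median depths of 929 and 1790 UMIs and summed levels of 525 and 1482 CPM. Over the same barcodes the fibroblast transcripts Col1a1, Col1a2, Col3a1 and Dcn went from 12557 to 7426 CPM, and the share with a doublet score above 0.25 went from 3.25% to 16.7%. In WT, 14.8% of fibroblast-like barcodes without Il17a and 80.0% of the 25 with 5 or more had a T cell transcript, and the median CD90.2 antibody count was 3 in those without and 16 in the 50 with 3 or more. The same rise was seen in the A20ZF7 plasma-like class, from 38.7% to 90.9%, in the macrophage or monocyte-like class, from 39.96% to 85.7%, and in the endothelial-like class, from 40.1% to 91.7%. Summed over the 4 T cell genes, with 0 of the 4 at 0 in any of these classes, the 7 classes outside T cells and ILCs had 126 to 614 CPM in WT and 620 to 1129 CPM in A20ZF7. The sum was higher in A20ZF7 in each of them, but by unlike amounts to Il17a. In fibroblast-like cells it went from 241 to 745 CPM, beside 54.5 to 703 CPM for Il17a. In macrophage or monocyte-like cells it went from 614 to 876 CPM, beside 105 to 805 CPM. Its part in the ligand levels was not tested. When barcodes with a T cell transcript were left out, Il17a was at 24.4 CPM in WT and 257 CPM in A20ZF7 fibroblast-like cells, at 45.0 and 269 CPM in smooth muscle or myofibroblast-like cells, at 18.4 and 368 CPM in endothelial-like cells and at 10.7 and 290.1 CPM in epithelial-like cells. Over the 7 classes these levels lay below the empty barcodes of their library, and the A20ZF7 level stayed above the WT level in each. The empty-barcode level is that of free RNA alone, while a cell's barcode holds it only in part. That part, estimated from Igha, Igkc and Jchain over whole A20ZF7 classes, was 0.169 in fibroblast-like, 0.302 in endothelial-like and 0.802 in macrophage or monocyte-like barcodes. A level below the empty barcodes thus does not show that it came from free RNA, which was not tested.

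**Figure D3:**
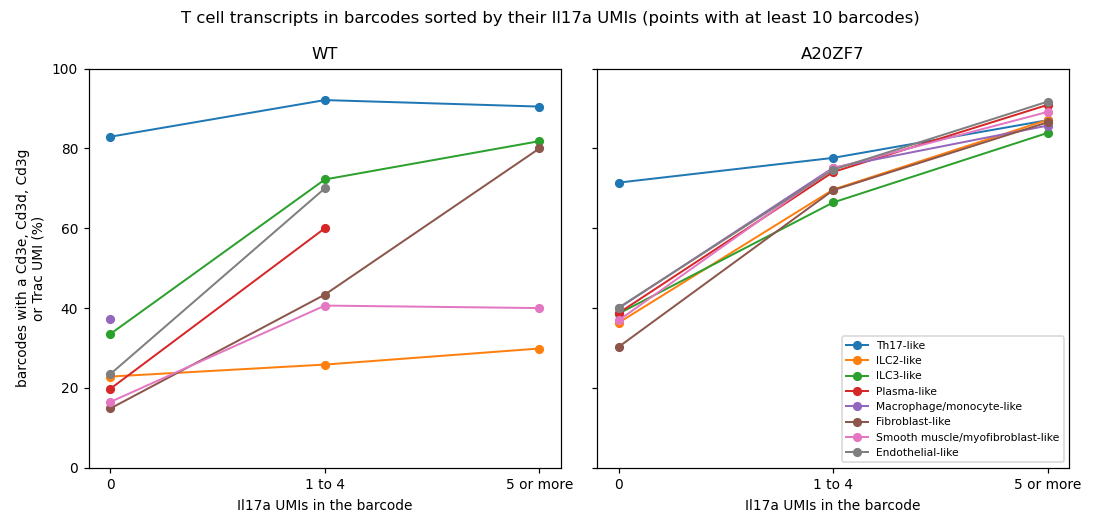
Share of barcodes with a T cell transcript (Cd3e, Cd3d, Cd3g or Trac) among barcodes with 0, 1 to 4 and 5 or more Il17a UMIs, by class and library, for points of at least 10 barcodes. The share rose to 86.5% in A20ZF7 fibroblast-like barcodes and to 87.2% in A20ZF7 ILC2-like barcodes, and was 29.9% in WT ILC2-like barcodes with 5 or more.

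Il17ra, the shared receptor chain, was low and widespread. In WT it ran from 6.63 CPM in the smooth muscle or myofibroblast-like class to 62.1 CPM in the dendritic-like class (12 UMIs), and in A20ZF7 from 19.98 CPM in the plasma-like class to 64.9 CPM in the CD8 T-like class. The name dendritic-like was weak in both libraries. Its 90 WT cells had the antibody genes Igha, Igkc and Jchain at 69509 CPM, 3.85 times the empty barcodes, against 0.458 times in A20ZF7. Of the 10 dendritic markers, 8 were above the empty barcodes in WT and 7 in A20ZF7. Xcr1 and Zbtb46 had no UMI in WT, and Xcr1 and Cd209a had none in A20ZF7. High in the order in both libraries were the CD8 T-like cells with 57.7 CPM in WT (10 UMIs, interval 27.7 to 106) and 64.9 CPM in A20ZF7 (157 UMIs, interval 55.1 to 75.8) and the naive or central memory T-like cells with 43.5 and 55.9 CPM, while the Th17-like cells had 53.0 (interval 25.4 to 97.6) and 41.3 CPM. With so few UMIs, neighbours in this order could not be told apart within counting error. In WT, 5 of 16 classes had an interval above the empty barcodes at 18.4 CPM, the dendritic-like, CD8 T-like, γδ T-like, Th1 or NKT-like and ILC3-like classes, and in A20ZF7, where the empty barcodes had 29.3 CPM, 2 had, the CD8 T-like and naive or central memory T-like classes. The fibroblast-like cells, a class known to respond to IL-17A, had 17.7 CPM in WT (119 UMIs, 2.13% of cells) and 24.2 CPM in A20ZF7 (346 UMIs, 2.74% of cells), both close to or below the empty barcodes of their library. Their ratio was 1.36 (interval 1.105 to 1.69) but was 0.95 in cluster A1, 1.04 in A5, 1.36 in A6, 0.97 in A9 and 2.59 in A10, and 0.97 when cells were thinned to 500 UMIs. The smooth muscle or myofibroblast-like class went from 6.63 CPM (18 UMIs) to 27.3 CPM (60 UMIs), a ratio of 4.12 (interval 2.40 to 7.41), and the epithelial-like class from 11.1 CPM (24 UMIs) to 30.01 CPM (13 UMIs), a ratio of 2.71 (interval 1.27 to 5.55). In both, the interval of the A20ZF7 level held the 29.3 CPM of the empty barcodes.

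**Figure D4:**
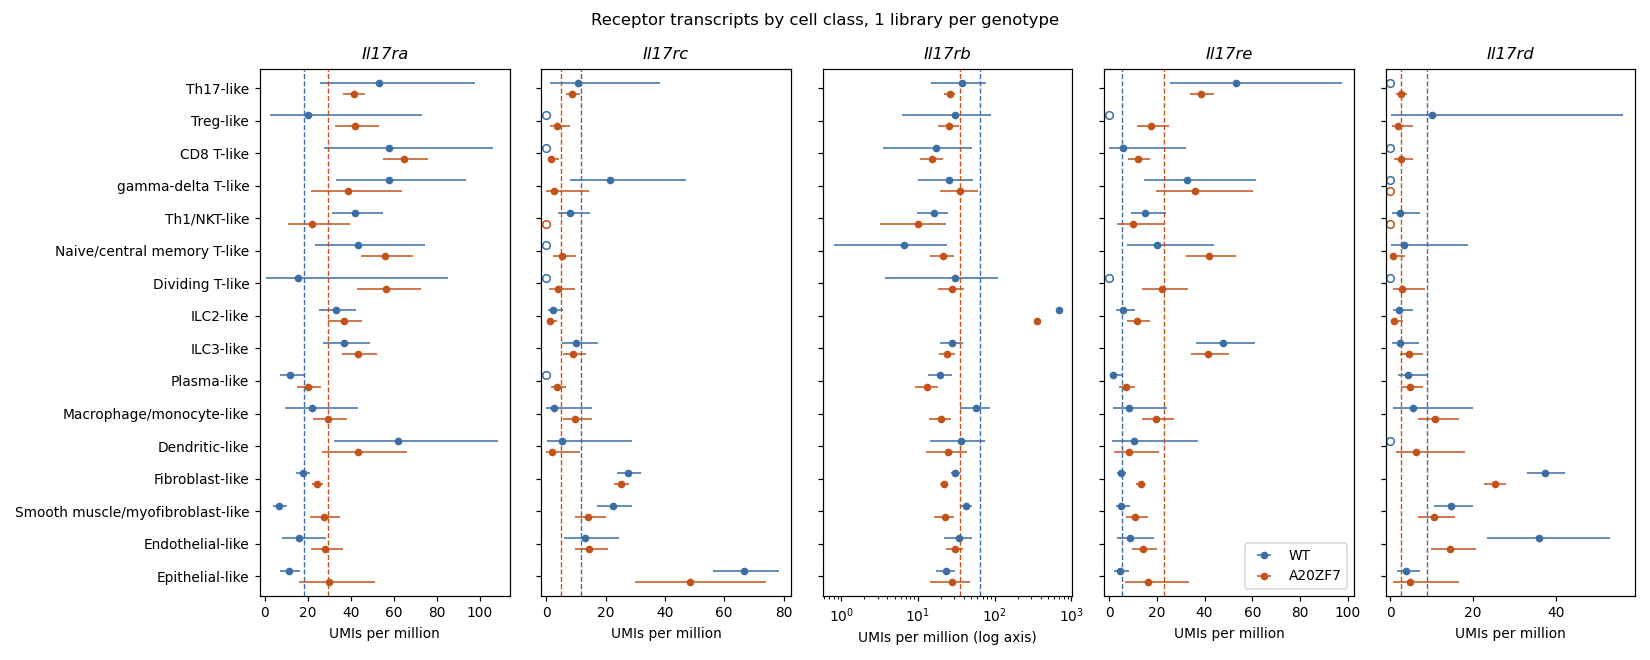
The 5 receptor chains in CPM by cell class and library, with exact 95% counting intervals, the empty barcodes as dashed lines and open circles where no UMI was found (Il17rb on a log axis). Il17rb stood out in ILC2-like cells, Il17rc in epithelial-like and fibroblast-like cells, Il17rd in fibroblast-like and endothelial-like cells, and Il17ra in no single class.

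Il17rc, the chain that completes the IL-17A and IL-17F receptor, was led by 2 non-hematopoietic classes. It was highest in the epithelial-like class, with 66.8 CPM in WT (145 UMIs in 586 cells, interval 56.4 to 78.6) and 48.5 CPM in A20ZF7 (21 UMIs in 338 cells, interval 30.01 to 74.1), and next in the fibroblast-like class, with 27.7 CPM (186 UMIs, interval 23.9 to 32.0) and 25.3 CPM (362 UMIs, interval 22.8 to 28.1). Only these 2 classes had an interval above that of the empty barcodes in each library. The empty barcodes had 11.6 and 5.09 CPM (intervals 6.74 to 18.5 and 1.39 to 13.0). The epithelial-like and fibroblast-like cells held 32.7% and 41.99% of Il17rc UMIs in WT, and 59.1% were in fibroblast-like cells in A20ZF7. Smooth muscle or myofibroblast-like cells had 22.5 and 14.1 CPM and endothelial-like cells 13.0 and 14.5 CPM. These levels were above those of the empty barcodes, but the intervals overlapped. The γδ T-like cells had 21.6 CPM in WT (6 UMIs) and 2.57 CPM in A20ZF7 (1 UMI). Of the WT epithelial-like cells 20.8% had an Il17rc UMI and of the A20ZF7 cells 4.73%, but their median depths were 3769 and 904.5 UMIs, and after thinning to 500 UMIs the shares were 4.61% and 1.76%. In the ILC2-like cells, with medians of 937 and 874 UMIs, the share was 0.242% and 0.134%. The ratio of A20ZF7 to WT was 0.73 in epithelial-like cells (interval 0.44 to 1.15) and 0.91 in fibroblast-like cells (interval 0.76 to 1.096), and both intervals hold equal levels. The fibroblast-like ratio turned above 1 with each barcode classed on its own, at 1.23 (interval 0.89 to 1.72), and in clusters A1, at 2.94 (interval 0.99 to 14.4, 3 WT UMIs), and A5, at 1.11, while it was 0.95 in A6 and 0.80 in A9 and in A10. The 2 WT mice had 63.1 and 66.8 CPM in epithelial-like cells, from 24 and 23 UMIs. Il17ra and Il17rc were found together in 8 of the 122 Il17rc-positive WT epithelial-like cells, 6.56% against 2.80% of the other WT epithelial-like cells, which were shallower (3473 against 4714 UMIs at the median). In fibroblast-like cells the share was 2.15% against 2.13% in WT and 3.38% against 2.73% in A20ZF7.

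Il17rb, the IL-25 receptor chain, had an interval above that of the empty barcodes in 1 class of each library. The ILC2-like cells had 697 CPM in WT (1284 UMIs in 1653 cells, interval 659 to 736) and 354 CPM in A20ZF7 (821 UMIs in 2243 cells, interval 331 to 380), while the other 15 classes ranged from 6.70 to 57.8 CPM in WT and from 10.0 to 36.0 CPM in A20ZF7. Of the ILC2-like cells, 49.8% had an Il17rb UMI in WT and 28.6% in A20ZF7, against 2.97% and 2.28% of fibroblast-like cells, which are deeper (medians of 1117 and 1020 UMIs against 937 and 874). ILC2-like cells held 69.1% of all Il17rb UMIs in WT and 43.7% in A20ZF7. The ratio was 0.51 (interval 0.47 to 0.56), just short of the 2-fold mark, past which 4.28% of all genes in the class were lower. It passed that mark, at 0.45, in barcodes with at least 1000 UMIs and, at 0.39, with each barcode classed on its own. The clusters of the class differed. Within L4 the ratio was 0.84 (421 and 353 CPM, interval 0.71 to 0.99) and within L8 it was 0.58 (778 and 452 CPM, interval 0.35 to 0.90, 42 A20ZF7 cells). The WT mice had 701 CPM (interval 634 to 773) and 631 CPM (interval 577 to 688). When ILC2-like barcodes with a T cell transcript were left out, the class had 759.8 CPM in WT and 399 CPM in A20ZF7. The empty barcodes had 64.6 CPM in WT and 35.6 CPM in A20ZF7, a difference in the same direction. Among Il17rb-positive ILC2-like cells, 3.52% had an Il17ra UMI in WT and 3.27% in A20ZF7, against 3.74% and 3.62% of the Il17rb-negative ones.

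Il17re, the IL-17C receptor chain, followed the classes with ligand UMIs in part. In WT it was highest in Th17-like cells at 53.0 CPM (10 UMIs, interval 25.4 to 97.6), ILC3-like cells at 47.7 CPM (61 UMIs, interval 36.5 to 61.3) and γδ T-like cells at 32.4 CPM (9 UMIs, interval 14.8 to 61.6). Only these 3 classes had an interval above that of the empty barcodes, which were at 5.44 CPM (interval 2.35 to 10.7). In A20ZF7 the same classes had 38.5, 41.5 and 36.0 CPM and the naive or central memory T-like cells 41.7 CPM. The empty barcodes there had 22.9 CPM with a wide interval (13.6 to 36.2), and no class had an interval above it. The Th17-like ratio was 0.73 (interval 0.39 to 1.53) and the ILC3-like ratio 0.87 (interval 0.63 to 1.21), so neither excluded equal levels. The Th17-like ratio, from 10 WT UMIs, was 0.39 with cells thinned to 500 UMIs (interval 0.19 to 0.92). It was 1.05 without WT mouse 1 and the WT barcodes without a hashtag call (3 WT UMIs). Among A20ZF7 Th17-like cells with an Il17re UMI, 80.2% had Il17a, against 73.2% of the rest, whose median depth was 736 against 1056 UMIs. The fibroblast-like class went from 5.07 CPM (34 UMIs) to 13.2 CPM (189 UMIs), a ratio of 2.61 (interval 1.80 to 3.88), with both levels below the empty barcodes. In the A20ZF7 fibroblast-like cells with Il17re, 57.7% had Il17a against 21.8% of the rest, at median depths of 1666 and 1013 UMIs.

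Il17rd was a stromal transcript. The fibroblast-like cells had 37.4 CPM in WT (251 UMIs, interval 32.9 to 42.3) and 25.2 CPM in A20ZF7 (360 UMIs, interval 22.6 to 27.9) and held 71.9% and 68.2% of all Il17rd UMIs. The endothelial-like cells had 36.0 CPM (25 UMIs, interval 23.3 to 53.1) and 14.5 CPM (30 UMIs, interval 9.79 to 20.7). These 2 classes had intervals above that of the empty barcodes in each library. The smooth muscle or myofibroblast-like cells had 14.7 and 10.5 CPM, against 8.84 and 2.54 CPM in the empty barcodes, with overlapping intervals. The γδ T-like cells had no Il17rd UMI in either library. The ratio was 0.67 in fibroblast-like cells (interval 0.57 to 0.79) and 0.40 in endothelial-like cells (interval 0.23 to 0.72), the latter past the 2-fold mark, as 5.74% of all genes in the class were. In the fibroblast-like clusters the ratio was 1.34 in A1, 0.76 in A5, 0.52 in A6, 0.40 in A9 and 0.58 in A10.

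**Figure D5:**
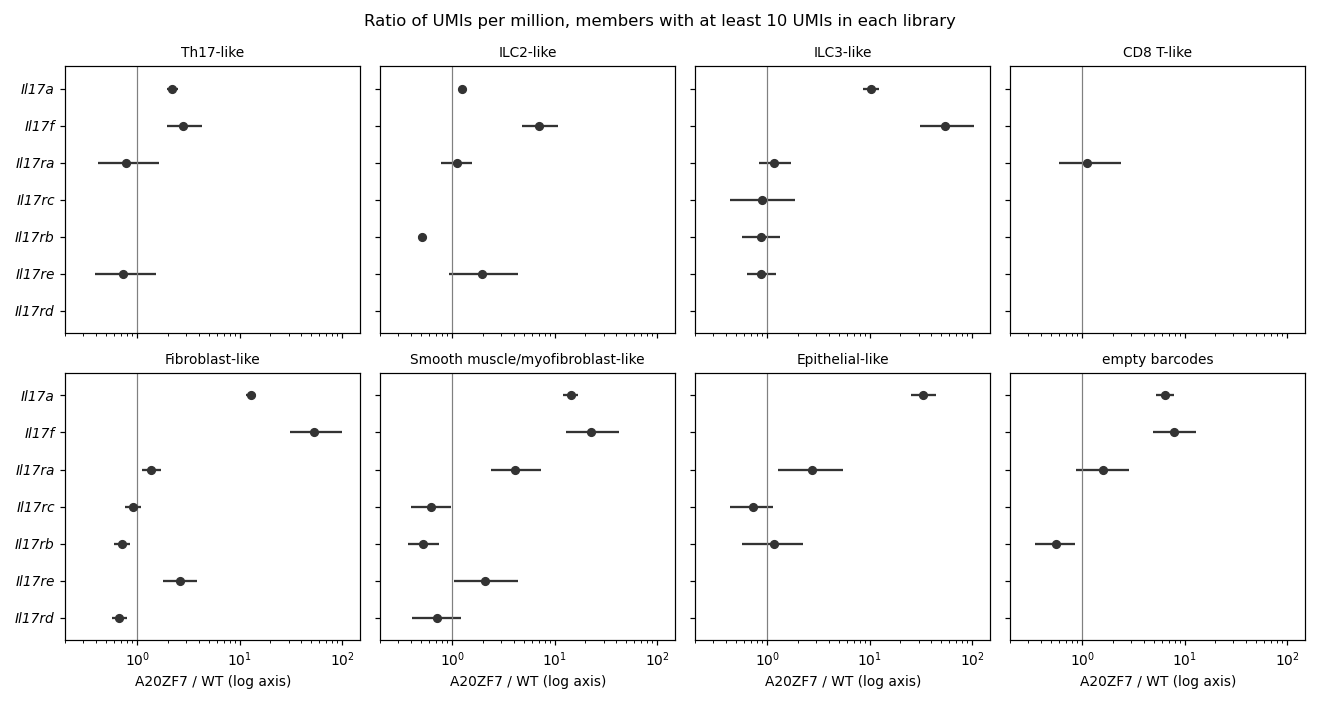
Ratio of A20ZF7 to WT for each member that had at least 10 UMIs in each library, in 7 classes and in the empty barcodes, on a log axis with exact conditional 95% intervals and a line at 1. The ligands lay above 1 wherever shown and the receptor chains on both sides of 1.

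Over all fibroblast-like cells, 3 of 7 members were at least 2-fold higher in A20ZF7, Il17a, Il17f and Il17re, where 7.71% of all genes in the class were higher and 4.63% lower. In the endothelial-like class 2 of 7, both ligands, were, where 8.5% of all genes were. In the smooth muscle or myofibroblast-like class 4 of 7, Il17a, Il17f, Il17ra and Il17re, were, where 7.59% of all genes were higher and 4.66% lower. In the epithelial-like class 3 of 5, Il17a, Il17f and Il17ra, were. There 27.5% of all genes were higher and 15.7% lower, at median depths of 3769 and 904.5 UMIs. Of the members called higher in these classes, only Il17a had an A20ZF7 interval above the empty barcodes. Without barcodes that held a T cell transcript, Il17a too lay below them in each of these classes.

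The other ligands of the family were nearly absent. Il25 had no UMI in any class of either library and Il17b and Il17c had at most 1 UMI per class and library, so IL-25 transcripts were not detected and IL-17C transcripts barely at this depth. Il17d was found in fibroblast-like cells, at 12.5 CPM in WT (84 UMIs) and 5.03 CPM in A20ZF7 (72 UMIs), a ratio of 0.40 (interval 0.29 to 0.56). In the smooth muscle or myofibroblast-like cells it was at 3.32 CPM (9 UMIs) and 5.46 CPM (12 UMIs), a ratio of 1.65 (interval 0.64 to 4.43).

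Of the 17 genes of IL-17 receptor signalling, all were measured in the fibroblast-like class and 2 were at least 2-fold higher in A20ZF7, Traf3, which restrains the receptor complex, from 58.3 to 139 CPM, and Arid5a, an RNA-binding protein that stabilizes target transcripts, from 17.4 to 38.6 CPM. Cebpd, a transcription factor downstream of the receptor, was lower, from 776 to 352 CPM. Of all genes in the class 7.71% were higher and 4.63% lower, so the 2 higher and 1 lower of 17 lie near the background. The list had a median log2 ratio of 0.31, against -0.07 for all genes in the class. Traf3 was at 58.5 CPM in WT and 151 CPM in A20ZF7 empty barcodes. Its rise was not particular to fibroblast-like cells. It was also past 2-fold in the CD8 T-like, ILC2-like, ILC3-like, endothelial-like and epithelial-like classes, among others, but not in the Th17-like and Treg-like classes. Traf3ip2, which encodes the adaptor Act1, was at 29.4 and 39.1 CPM in the fibroblast-like cells, and Nfkbiz, which encodes the transcriptional cofactor IκBζ, at 126 and 199 CPM, neither past 2-fold. In the Th17-like class 0 of 17 were 2-fold higher and 1, Cebpd, was lower, beside 9.2% and 6.13% of all genes.

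Of 22 genes that IL-17A is known to induce in stromal or epithelial cells, 17 had enough UMIs in the fibroblast-like class, and 5 were at least 2-fold higher in A20ZF7, beside 7.71% of all genes. The list is not specific to IL-17A. The study that reported these mice counts Saa1 and Saa3 among IL-22-dependent transcripts, and which cytokine lay behind the levels here was not tested. Saa3, an acute-phase protein, went from 13.3 CPM (89 UMIs) to 380 CPM (5431 UMIs), a ratio of 28.6 (interval 23.2 to 35.7). Its A20ZF7 empty barcodes had 62.3 CPM. Cxcl5, a neutrophil chemokine, went from 14.8 to 63.1 CPM, and Steap4, a metalloreductase, from 9.69 to 42.8 CPM, against 12.7 and 5.09 CPM in the A20ZF7 empty barcodes. Lcn2, an iron-binding antimicrobial protein, went from no UMI to 17.0 CPM (243 UMIs). Ccl20, the ligand of CCR6, went from 1.79 to 35.0 CPM, below the 43.3 CPM of the A20ZF7 empty barcodes. Csf2 and Pigr were at least 2-fold lower, Pigr from 18.5 to 1.47 CPM with empty barcodes at 384 and 31.8 CPM. The list had a median log2 ratio of 0.26. Cxcl1, Ccl2 and Il6 had ratios of 1.32, 1.67 and 1.07. In the epithelial-like class, 7 targets had enough UMIs, and Lcn2 (3.22 to 199 CPM), Saa1 (0.461 to 66.9 CPM) and Ccl20 (7.83 to 32.3 CPM) were higher. The A20ZF7 level of Ccl20 was here too below the 43.3 CPM of the empty barcodes. Pigr, which carries IgA across the epithelium, went from 3863 to 1226 CPM and Csf2 from 18.0 to 4.62 CPM (2 UMIs). These 3 higher and 2 lower of 7 stand beside 27.5% and 15.7% of all genes in the class, whose own markers also differed, Fabp1, an enterocyte gene, from 23404 to 2918 CPM and Muc2, a goblet cell gene, from 20.7 to 199 CPM. The target list was counted the same way in the Th17-like class, where 7 had enough UMIs, 0 were higher and 1, Ccl20, was lower, from 435 to 216 CPM.

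The 14 genes of the type 3 programme, the transcription factors and receptors of cells that make IL-17, were all measured in the Th17-like class, and 0 were higher and 0 lower by at least 2-fold, beside 9.2% and 6.13% of all genes. Il23r, a chain of the IL-23 receptor, was at 324 CPM in WT and 478 CPM in A20ZF7, and Maf, a transcription factor, at 663 and 965 CPM. The list had a median log2 ratio of 0.25, against 0.00 for all genes in the class. In the ILC3-like class 3 of 13 were higher, the transcription factors Batf (72.0 to 179 CPM), Irf4 (31.3 to 109 CPM) and Hif1a (192 to 390 CPM), and none was lower, beside 6.26% and 3.61% of all genes. That class was mostly cluster L9 in WT and L2 in A20ZF7, and its T cell transcripts went from 748 to 1121 CPM. The part of either in these levels was not tested. In the ILC2-like class 3 of 13, Il23r, Il1r1 and Ccr6, were higher, from 57.5, 38.0 and 7.06 CPM to 166, 89.4 and 22.9 CPM, each below the A20ZF7 empty barcodes at 351, 151 and 44.5 CPM. Of all genes in that class 6.03% were higher. In the fibroblast-like class 7 of 14 were higher, among them Batf (17.3 to 86.1 CPM) and Ccr6 (3.87 to 22.7 CPM), both below the empty barcodes of their library, while 7.71% of all genes in the class were higher. Il23r, Il1r1, Rora and Ccr6 are among the genes of this list that also served as Th17 markers.

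Over 30 profiles of class and library with at least 100000 UMIs, Il17a and Il17f had the most alike patterns among the members, with a Pearson correlation of log2(CPM + 10) of 0.92. Outside the members, the genes most like Il17a were Stx11 (0.91), Tnfsf8 (0.89) and Batf (0.88), and those most like Il17f were Gm13601 (0.89), Ccl20 (0.87) and Stx11 (0.87). Il17rb was most like 1700061F12Rik (0.95), Calca and Raver2, Il17re most like Tnfsf11 (0.88), Il23r and Stk24, and Il17rd most like Pcdh19 (0.95), Poglut3 and Cdr2l. Il17ra was most like Ptprcap, Sash3 and Arhgdib and Il17rc most like Srxn1, Acaa2 and Glo1. The profiles share 2 libraries and their free RNA, so the correlations only describe these profiles.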

How the data were processed

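The 2 gene expression matrices hold raw UMI counts per gene and barcode as the authors deposited them, unfiltered. The 5′ libraries (10x Genomics) were aligned to mm10 with Cell Ranger 7.1 per the labels and methods, while the matrix headers name 8.0.0. The libraries list 33696 (WT) and 32285 (A20ZF7) genes, of which 31950 identifiers are shared and 1905 of those carry another symbol, so the annotation differed with genotype. The deposited antibody counts were used for WT (hashtags and surface proteins). Those given for A20ZF7 were identical to them and were not used.

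Barcodes were kept with 200 to 2500 genes, under 15% mitochondrial UMIs and at least 676 (WT) or 397 (A20ZF7) UMIs, and 2547 WT barcodes with 2 hashtags were removed, which could not be done for A20ZF7. Scrublet scored doublets, which were otherwise not removed in either library. Cells were clustered jointly with Seurat 5.3.0 in R 4.3.3 at resolution 0.8, with the members kept out of the variable genes, and clusters were named from marker lists. The limits for naming were set after the clusters were seen, and clusters that stayed unnamed are not described. UMIs were summed per class and library. Intervals are exact (Poisson, binomial, or conditional on the sum for ratios) at 95% and cover counting error only. With 1 library per genotype no test was run. A gene was called past 2-fold where both libraries together had at least 20 UMIs in the class. The named genes were all members, the listed genes past 2-fold or highest in their class, and the 3 genes most alike in pattern. The members and lists were chosen with earlier results of these data known. 1 gene of the marker and programme lists is counted but not reported here by name. The scripts were tested on simulated data. Alternatives covered cell filters, naming, clustering, doublets, totals, empty-barcode subtraction, thinning and each WT mouse. Sequences and coordinates come from RefSeq's GRCm38.p6 annotation, which matched 6 of 7 members with a promoter window.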

Additional observations from a re-analysis of the deposited data

How the results depend on the processing

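With at least 1000 UMIs per barcode, the Th17-like Il17a ratio was 2.83, the ILC2-like Il17rb ratio 0.45 and the Th17-like share of A20ZF7 Il17f UMIs 23.9% (31.6% as reported). With each barcode classed on its own, the Th17-like ratios were 4.21 for Il17a and 11.3 for Il17f, the Il17rb ratio 0.39, the fibroblast-like Il17rc ratio 1.23 and the Il17f share 9.10%. At resolution 1.6 the Il17a ratio was 1.67 and the share 23.1%. With the members allowed among the variable genes, the Th17-like ratios fell to 1.09 for Il17a and 1.76 for Il17f, and the share was 24.7%. The share was 32.8% without Scrublet scores above 0.25, 36.0% with the empty-barcode profile subtracted and 34.6% with cells thinned to 500 UMIs. Thinning left out the A20ZF7 cells below 500 UMIs and no WT cell. It gave 1.71 for Il17a and 0.39 for Il17re in Th17-like cells and turned the fibroblast-like Il17ra ratio to 0.97. Within clusters, an alternative chosen after seeing the data, the ratios were 1.43 (Il17a), 6.81 (Il17f) and 0.39 (Il17re) in L0, 0.84 (L4) and 0.58 (L8) for Il17rb, 0.95 (A1) and 0.97 (A9), both reversed, 1.04 (A5) and 2.59 (A10) for Il17ra, and 2.94 (A1) and 1.11 (A5) for Il17rc. Each WT mouse was also left out by hashtag, together with all WT barcodes without a call. That gave 2.33 to 2.53 for Il17a, 2.46 to 5.25 for Il17f and 0.48 to 1.05 for Il17re. For the other ratios it gave 0.51 to 0.56 for Il17rb, 1.29 to 1.37 for Il17ra and 0.85 to 0.89 for Il17rc. Over all alternatives for these ratios and this share, 62 values stayed inside the counting interval of the reported value. Another 30 moved outside it and 3 were reversed. For 5 single levels 42 values stayed inside and 16 moved outside. The cause of these shifts was not tested. No paired analysis was possible because each genotype is 1 library and no test was run. Il17f and several receptor chains rest on under 20 WT UMIs in many classes, which limits their ratios.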
